A study of Mus musculus with 21 samples.

Results

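The 31 genes described here encode voltage-gated sodium and calcium channels of neurons, their auxiliary subunits, and channels and regulators that work beside them. They were selected from a list of gene symbols that was drawn up with earlier results of these data known, and all 31 were found among the 64361 gene rows of the deposited count table. Each is given as CPM, the counts of a gene per 1000000 counts of its library. Bulk RNA was measured by prime-seq, an early-barcoding RNA-seq method whose reads come from the 3′ ends of polyadenylated RNA, in 21 libraries of microdissected mouse cortex and hippocampus from 11 mice, 10 of which gave both tissues. The GA-Camk2a mice (GACamk in the labels) carry a floxed transgene for poly-GA, the glycine-alanine repeat protein of C9orf72 disease, which a Camk2a-Cre driver switches on in excitatory neurons. They are compared with mice labelled ctrl, whose alleles the labels do not give further. All were on a C57BL/6J background, were 30 to 40 weeks old, were killed when the transgenic animals reached their humane endpoint and, as the study's methods state, came from a pair of litters. The libraries comprised 5 control and 6 GA-Camk2a cortices and 4 control and 6 GA-Camk2a hippocampi, spread over 2 batches as the labels name them.

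Voltage-gated sodium channels open when the membrane is depolarised and carry the rising phase of the action potential. Each has a large pore-forming alpha subunit (the Scna genes) and small beta subunits that set its gating and its place in the membrane. Voltage-gated calcium channels turn depolarisation into calcium entry, which releases transmitter at nerve endings (P/Q, N and R types, Cacna1a, Cacna1b and Cacna1e), reaches the nucleus and dendrites (L type, Cacna1c and Cacna1d) or drives rebound bursts (T type, Cacna1g, Cacna1h and Cacna1i). Their alpha2delta (Cacna2d) and beta (Cacnb) subunits bring the pore to the surface, and several gamma (Cacng) proteins act on glutamate receptors. HCN channels carry the hyperpolarisation-activated current, Nalcn carries a resting sodium leak, and the FGF homologous factors Fgf12, Fgf13 and Fgf14 stay inside the cell and bind the tails of sodium channels.

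Where the genes start was looked up in RefSeq, since many of them moved together. Promoters were found for 24 of the 31 genes, 41 promoters in all, and for 7 of the 8 genes that were lower in GA-Camk2a mice in both tissues. Shown are the 250 bases before the start, 5′ to 3′, of the 4 of these 8 with a single start in the RefSeq table of GRCm38.p6, a different build from the one the reads were aligned to. The windows lie at chr9:45117626-45117875 on the plus strand for Scn2b, chr1:154725921-154726170 on the minus strand for Cacna1e, chr5:15934441-15934690 on the plus strand for Cacna2d1 and chr14:29721865-29722114 on the minus strand for Cacna2d3. Capitals mark GC boxes, GGGCGG or its reverse complement CCGCCC.
Scn2b: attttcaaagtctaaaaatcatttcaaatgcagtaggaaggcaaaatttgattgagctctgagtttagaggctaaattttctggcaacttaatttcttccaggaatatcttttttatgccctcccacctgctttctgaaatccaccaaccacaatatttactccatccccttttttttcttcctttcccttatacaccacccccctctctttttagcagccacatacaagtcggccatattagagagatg
Cacna1e: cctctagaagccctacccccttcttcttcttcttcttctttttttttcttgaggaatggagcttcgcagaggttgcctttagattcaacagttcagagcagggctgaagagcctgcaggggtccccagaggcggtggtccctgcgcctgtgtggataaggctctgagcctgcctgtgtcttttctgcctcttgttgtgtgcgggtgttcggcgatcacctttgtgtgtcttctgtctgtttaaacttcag
Cacna2d1: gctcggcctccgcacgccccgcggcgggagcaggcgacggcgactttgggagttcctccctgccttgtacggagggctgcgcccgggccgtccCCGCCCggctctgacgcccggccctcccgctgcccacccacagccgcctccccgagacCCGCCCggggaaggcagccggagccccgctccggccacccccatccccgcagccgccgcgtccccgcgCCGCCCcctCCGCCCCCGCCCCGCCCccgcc
Cacna2d3: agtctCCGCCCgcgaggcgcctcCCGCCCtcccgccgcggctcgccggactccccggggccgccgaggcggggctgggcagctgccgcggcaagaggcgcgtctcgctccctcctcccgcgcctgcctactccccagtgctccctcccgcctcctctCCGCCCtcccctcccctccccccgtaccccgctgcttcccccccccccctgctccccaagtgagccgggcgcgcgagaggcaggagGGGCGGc
The promoters of Cacna2d1 and Cacna2d3 were 82.4% and 80% G and C and held 6 and 4 GC boxes, overlapping matches counted. Those of Scn2b and Cacna1e were 38.4% and 52% G and C and held 0, so the 4 genes did not share this feature. Over both strands, a GC box was found in 48.8% of the 41 promoters of the channel genes and in 32.7% of all 32851 promoters of the same length. The channel gene promoters had a median of 62.4% G and C against 52.4% for all, and motif shares were not adjusted for it. The letters TGACGTCA, the cyclic AMP response element, were found in 0 of the 41 and in 1.55% of all, and TATAAA in 4.88% and 12.4%.

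Depth ranged from 1048201 to 5888102 total counts per library, and 29 of the 31 genes had enough counts to be tested in cortex and 30 in hippocampus. Hcn3, at 3 to 14 counts per cortex library, was tested in hippocampus alone. Hcn4, the HCN channel best known from cardiac pacemaking, had 0 to 13 counts in any library and was tested in neither tissue. As a check of the tissue labels, 6 of 7 hippocampal marker genes were higher in control hippocampus than in control cortex. Of 7 cortical marker genes, 5 were lower there and 1, Fezf2, was higher (log2 fold change 0.50, adjusted p = 0.0338 by edgeR). The remaining one, Rorb, a marker of the cortical input layer, did not pass (1.01, adjusted p = 0.228) and was at 1450 CPM in hippocampus control 11, 5300 in hippocampus GA-Camk2a 16 and 4410 in hippocampus GA-Camk2a 30, against 86.6 to 165 CPM in the other hippocampi, 612 in cortex GA-Camk2a 41 and 133 to 214 in the other cortices. The 6 other cortical markers together were at 194 to 213 CPM in these 3 hippocampi and at 202 to 278 in the rest. The hippocampal comparisons were also made without these 3 libraries, a choice made after seeing the data, and the part of Rorb in the results was not tested otherwise. The summed CPM of 5 choroid plexus markers varied between 1810 and 55500 over the hippocampus libraries, and that of 9 striatal markers between 1000 and 1570 in the control cortices against 280 to 641 in the GA-Camk2a cortices. A deposited GFP row held 0 to 4 counts per library, some of them in controls, and could not check the genotype labels.

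In cortex, 13 of the 29 tested genes were lower in GA-Camk2a mice than in controls and 0 were higher (edgeR quasi-likelihood test, adjusted p under 0.05 over all genes). Over all 13058 genes tested, 6.17% were lower and 6.35% were higher. At an unadjusted p under 0.05, 17 of the 29 were lower and 0 higher by edgeR, and DESeq2 and limma-voom also called 0 higher. The median log2 fold change of the 29 genes was -0.41, against -0.005 for all genes, and 27 of the 29 values were below 0. In hippocampus, 11 of the 30 tested genes were lower and 0 were higher, against 5.97% and 4.97% of all 14884 genes. Unadjusted, 15 were lower and 0 higher by edgeR, and the other 2 tools called 0 higher here too. The median was -0.34, against 0.016 for all genes, and 26 of the 30 values were below 0. Every GA-Camk2a library lay below every control library in 5 of the 29 genes in cortex (Scn1a, Scn2a, Scn8a, Cacna2d1 and Fgf13), against 2.67% of all genes, and in 7 of the 30 in hippocampus (Scn2b, Scn3b, Cacna1e, Cacna1h, Cacna2d1, Cacna2d3 and Fgf13), against 4.02%. In tissue RNA, fewer neurons and less RNA of a gene per neuron cannot be told apart.

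**Figure D1:**
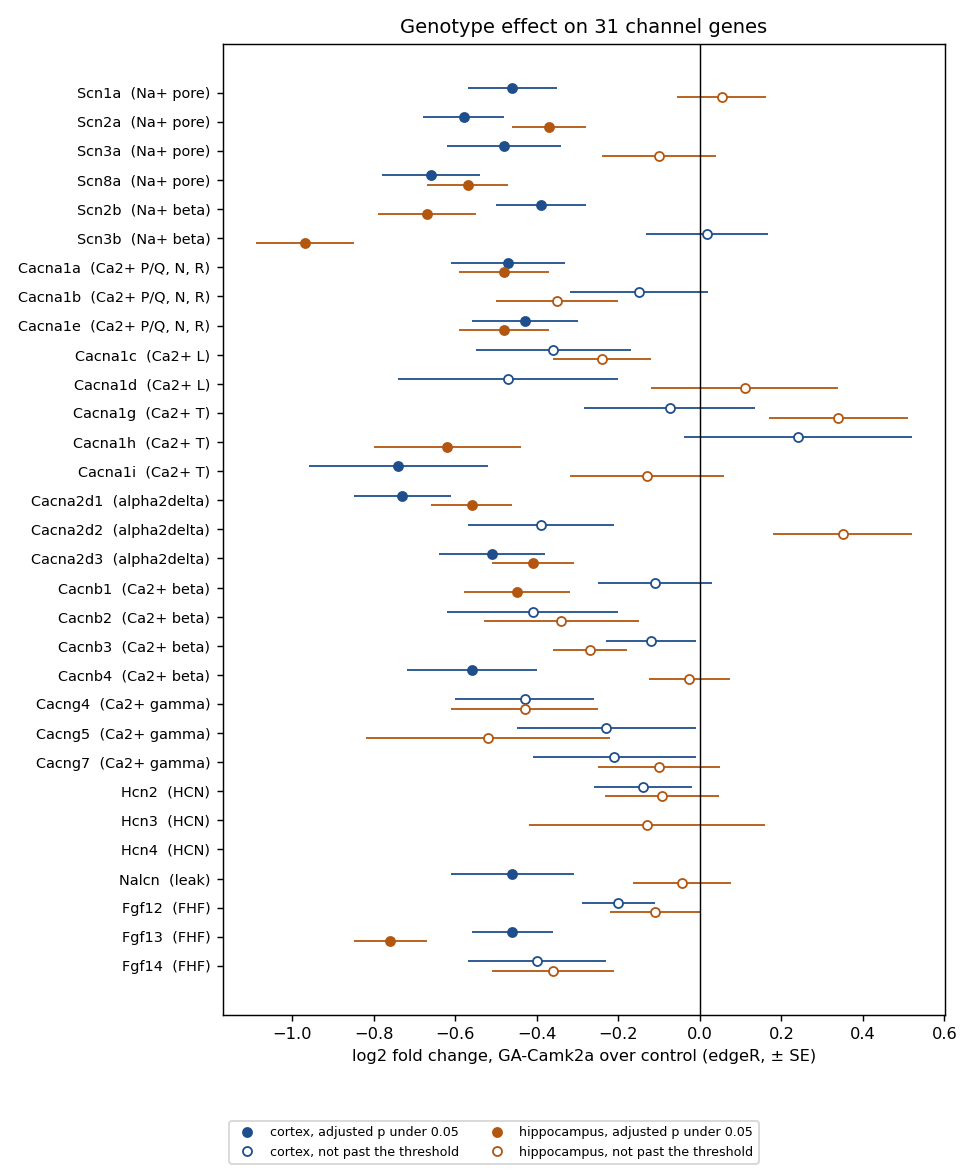
Log2 fold change of GA-Camk2a over control mice for each of the 31 genes by role, in cortex (blue) and hippocampus (orange), with the standard error of the edgeR fit as bars. Filled points passed an adjusted p of 0.05, and all 13 in cortex and 11 in hippocampus lie to the left of 0. Hcn4 has no point and Hcn3 none in cortex.

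The cell type markers moved as well. Of 9 excitatory neuron markers, 5 were lower in each tissue, with medians of -0.67 in cortex and -0.73 in hippocampus. Their summed CPM ran from 1010 to 1480 in control and from 780 to 954 in GA-Camk2a cortices, and from 1470 to 1840 and from 761 to 1000 in hippocampi. Of 10 genes that mark all neurons, 5 were lower in cortex and 8 in hippocampus, with medians of -0.37 and -0.47, sizes close to those of the channel genes. The 8 inhibitory neuron markers had medians of 0.18 and 0.24, with 1 lower and 1 higher in cortex and 2 higher in hippocampus. Of 10 microglia markers, 8 were higher in each tissue, and of 8 astrocyte markers 5 were higher in cortex and 6 in hippocampus. All 9 striatal markers were lower in cortex (median -1.49), whereas the 6 that could be tested in hippocampus had a median of 0.017. Of all these lists, no marker was at 0 in any group. Their part in the channel results was not tested.

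All 4 sodium channel alpha subunits were lower in cortex, and 2 of them in hippocampus. Scn2a, the alpha subunit of excitatory neurons and their axon initial segments, measured 156, 166, 227, 205 and 188 CPM in the control cortices of mice 11, 20, 31, 37 and 38 and 110 to 149 (median 126) in the GA-Camk2a cortices. The groups did not overlap, and the log2 fold change was -0.58 ± 0.10 (SE, adjusted p = 0.000418). In hippocampus the controls of mice 11, 20, 31 and 37 measured 216, 184, 228 and 174 CPM and the GA-Camk2a libraries 144 to 182 (median 154), with some overlap and a log2 fold change of -0.37 ± 0.09 (adjusted p = 0.021). This hippocampal Scn2a call was lost without control 11 (adjusted p = 0.079) or control 31 (0.0883).

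Scn8a, which dominates at the mature initial segment and the nodes of Ranvier, measured 120, 110, 177, 88.6 and 102 CPM in control cortices and 68.8 to 81 (median 76.7) in GA-Camk2a cortices. All GA-Camk2a values lay below the controls, and the log2 fold change was -0.66 ± 0.12 (adjusted p = 0.000734). Control hippocampi measured 173, 137, 168 and 145 CPM and GA-Camk2a hippocampi 88.6 to 137 (median 108). Only the highest GA-Camk2a value reached the lowest control, with a log2 fold change of -0.57 ± 0.10 (adjusted p = 0.00252).

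Scn1a, the alpha subunit best known from fast-spiking inhibitory neurons, measured 71.6, 76.3, 105, 71.9 and 85.9 CPM in control cortices and 50.7 to 71 (median 61) in GA-Camk2a cortices. The groups came close without overlapping, with a log2 fold change of -0.46 ± 0.11 (adjusted p = 0.00779). Control hippocampi measured 77.3, 67.3, 71.2 and 66.6 CPM, inside the GA-Camk2a range of 58.5 to 85.4 (median 76.8), and the log2 fold change was 0.053 ± 0.11 (adjusted p = 0.817). The difference between the tissues, 0.50 ± 0.15, did not pass (adjusted p = 0.194 in the test of the difference over all genes). Scn3a, the alpha subunit most abundant before birth, was lower in cortex, from 34.1 ± 6.98 (SD, n = 5) to 25 ± 4.61 CPM (n = 6), with an adjusted p of 0.0257 by edgeR. In hippocampus it measured 41.3 ± 4.21 (n = 4) and 39.9 ± 9.25 CPM (n = 6), with an adjusted p of 0.706 by edgeR. Scn3a and Scn2a are adjacent genes on chromosome 2.

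Of the 2 sodium channel beta subunits, Scn2b was lower in both tissues and Scn3b in hippocampus alone. Scn2b, which is disulphide-linked to the alpha subunit, measured 132, 159, 166, 162 and 177 CPM in control cortices and 99.5 to 159 (median 112) in GA-Camk2a cortices. The groups overlapped, with a log2 fold change of -0.39 ± 0.11 (adjusted p = 0.0289). In hippocampus, controls lay close together at 138, 133, 133 and 145 CPM, and 5 of the 6 GA-Camk2a libraries were at 87.4 or less. The remaining one, mouse 34, was at 126, still below every control, and the log2 fold change was -0.67 ± 0.12 (adjusted p = 0.0015).

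Scn3b, a beta subunit that associates with the alpha subunit without a disulphide bond, was the only gene of the 29 tested whose genotype effect differed between the tissues. In simulated counts, the share of false calls in the test of this difference exceeded the threshold. In cortex the controls measured 45.8, 58.1, 59.7, 64.3 and 54.6 CPM, and the GA-Camk2a libraries lay on both sides of them at 39.5 to 73.5 (median 58.1). In hippocampus the controls measured 88.7, 101, 136 and 115 CPM, and the GA-Camk2a libraries 47.9 to 77.1 (median 55.5). The genotypes did not overlap in hippocampus, whereas in cortex their means were 56.5 ± 6.93 (SD, n = 5) and 56.4 ± 15.1 CPM (n = 6). The log2 fold change was 0.017 ± 0.15 in cortex (adjusted p = 0.962) and -0.97 ± 0.12 in hippocampus (adjusted p = 0.000107). Scn3b was the only channel gene of the 29 for which the test of the difference passed (-1.01 ± 0.21, adjusted p = 0.0271), where 0.251% of 14751 genes passed in that direction and 0.149% in the other. That call was lost, with an adjusted p of up to 0.0978, when cortex control 11 or 31, cortex GA-Camk2a 23 or 35, hippocampus control 31 or 37 or hippocampus GA-Camk2a 30 was left out, at differences between -0.99 and -0.89. Without the 3 hippocampi high in Rorb it was also lost, at -0.97 and an adjusted p of 0.081, while Scn3b was still lower in hippocampus itself (-0.98, adjusted p = 0.000401). Within batch 1 and batch 2 the hippocampal log2 fold changes were -0.99 and -0.95 and the cortical ones 0.096 and -0.14.

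**Figure D2:**
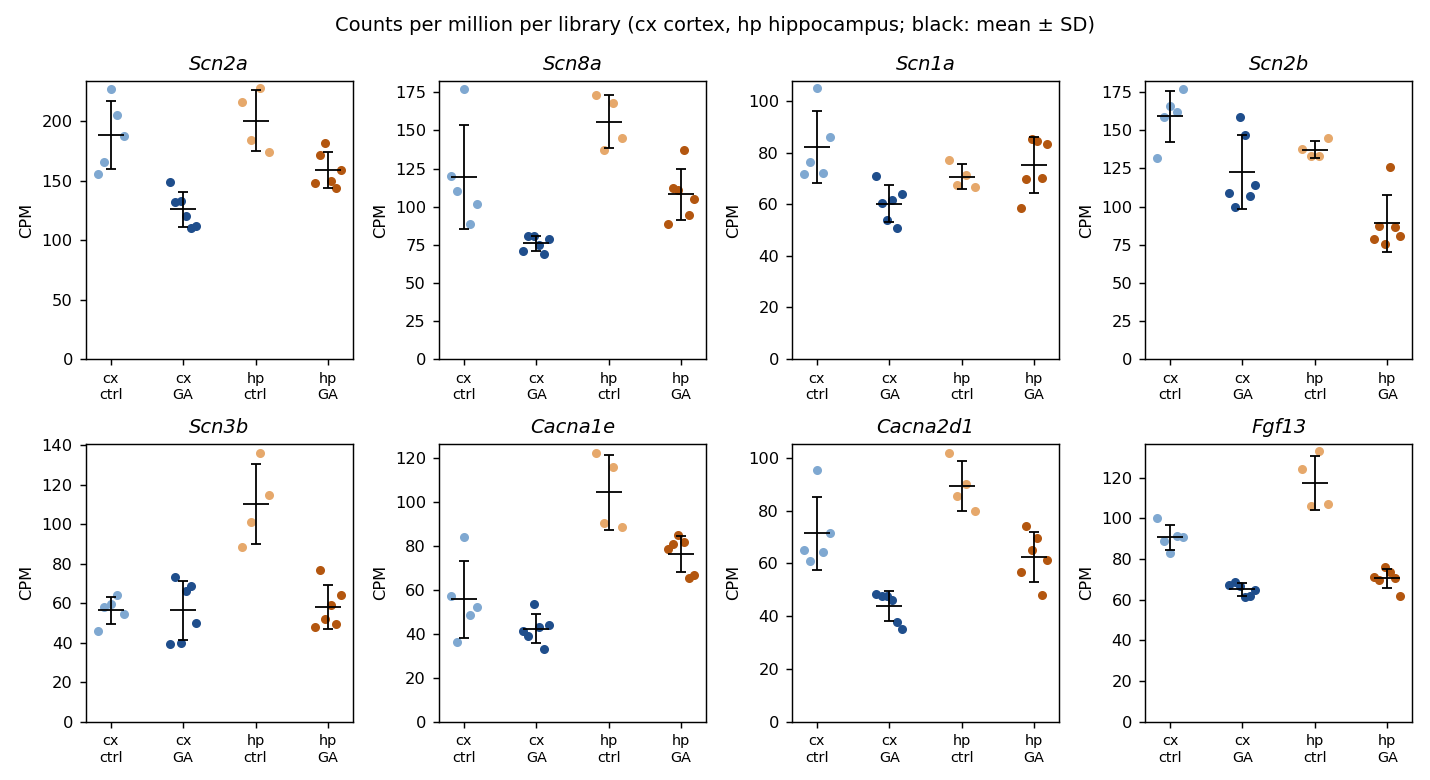
CPM per library (points) with the mean and SD (black) for 8 of the genes in control (ctrl) and GA-Camk2a (GA) cortex (cx, n = 5 and 6) and hippocampus (hp, n = 4 and 6). Fgf13 and Cacna2d1 separate by genotype in both tissues, Scn2b, Scn3b and Cacna1e in hippocampus alone and Scn1a, Scn2a and Scn8a in cortex alone.

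Among the pore-forming calcium channel genes, those of the P/Q and R types were lower in both tissues. Cacna1e, the R-type pore, measured 57.2, 36.3, 83.9, 48.6 and 52.1 CPM in control cortices and 33.2 to 53.7 (median 42.1) in GA-Camk2a cortices. The groups overlapped widely (log2 fold change -0.43 ± 0.13, adjusted p = 0.0402), and without control 31 the adjusted p was 0.235. The control hippocampi at 122, 90.5, 116 and 88.7 CPM all lay above the GA-Camk2a libraries at 65.2 to 84.8 (median 79.8), with a log2 fold change of -0.48 ± 0.11 (adjusted p = 0.00805).

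Cacna1a, the P/Q-type pore at most fast synapses, measured 37.2, 40, 55.3, 34.9 and 33.8 CPM in control cortices against 24 to 36.9 (median 27.9) in GA-Camk2a cortices (log2 fold change -0.47 ± 0.14, adjusted p = 0.034). The groups overlapped, and without control 31 the adjusted p was 0.208. Control hippocampi measured 61.7, 53.2, 65 and 46.5 CPM and GA-Camk2a hippocampi 32.6 to 49.4 (median 41.4), with a log2 fold change of -0.48 ± 0.11 (adjusted p = 0.0111). Without hippocampus control 11 that adjusted p was 0.0546. Cacna1b, the N-type pore, passed in neither tissue (log2 fold changes -0.15 ± 0.17 and -0.35 ± 0.15).

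Neither L-type pore passed the test. Cacna1c, the L-type pore that prevails in brain, had log2 fold changes of -0.36 ± 0.19 in cortex and -0.24 ± 0.12 in hippocampus. Cacna1d, which opens at lower voltage, had -0.47 ± 0.27 and 0.11 ± 0.23.

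Of the 3 T-type pores, Cacna1i passed in cortex and Cacna1h in hippocampus. Cacna1i measured 12.4, 9.08, 22.4, 14.7 and 12.7 CPM in control cortices and 7.02 to 10.8 (median 9.19) in GA-Camk2a cortices, with a log2 fold change of -0.74 ± 0.22 (adjusted p = 0.0269). Only control 20 lay within the GA-Camk2a range, and without control 31 the adjusted p was 0.186. It did not pass in hippocampus (-0.13 ± 0.19), where controls measured 9.12 to 11.4 CPM. Cacna1h was lower in hippocampus, from 10.7 ± 1.98 (SD, n = 4) to 6.99 ± 0.512 CPM (n = 6), with an adjusted p of 0.0419 by edgeR on 10 to 52 counts per library. It did not pass by DESeq2 with batch (adjusted p = 0.141) or limma-voom (0.0634), nor without the 3 hippocampi high in Rorb (0.119). Cortex gave 5.62 ± 2.87 (n = 5) and 6.65 ± 1.11 CPM (n = 6). Cacna1g, the T-type pore known from thalamic relay cells, passed in neither tissue (-0.074 ± 0.21 and 0.34 ± 0.17).

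Of the alpha2delta subunits, 2 of 3 were lower in both tissues. Cacna2d1, the main target of gabapentin, measured 64.9, 60.9, 95.3, 64.3 and 71.5 CPM in control cortices and 35.3 to 48.5 (median 46.8) in GA-Camk2a cortices. Without any overlap, the log2 fold change was -0.73 ± 0.12 (adjusted p = 0.000197), the lowest adjusted p of the 29 genes in cortex. The control hippocampi measured 102, 85.6, 90 and 79.8 CPM and the GA-Camk2a libraries 47.9 to 74.2 (median 63.2), again without overlap (-0.56 ± 0.10, adjusted p = 0.0028).

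Cacna2d3 was lower from 51.7 ± 15 (SD, n = 5) to 37.5 ± 7.88 CPM (n = 6) in cortex, with an adjusted p of 0.0123 by edgeR. In hippocampus it was lower from 57.5 ± 6.66 (n = 4) to 44.2 ± 3.78 CPM (n = 6), with an adjusted p of 0.0183 by edgeR. Its cortical call was lost without control 31 (adjusted p = 0.0732) and its hippocampal call without control 11 (0.0702) or control 31 (0.0578). Cacna2d2, an alpha2delta subunit prominent in Purkinje and inhibitory cells, had log2 fold changes of opposite sign, -0.39 ± 0.18 in cortex and 0.35 ± 0.17 in hippocampus, neither past the threshold. Their difference of 0.70 ± 0.24 did not pass either (adjusted p = 0.269).

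Each tissue had 1 of the 4 calcium channel beta subunits past the threshold, and not the same one. Cacnb4 measured 77.3, 69.9, 133, 61.3 and 71.5 CPM in control cortices and 44.3 to 77.3 (median 54.4) in GA-Camk2a cortices (log2 fold change -0.56 ± 0.16, adjusted p = 0.0214). The value of control 31 stood far above the other controls, and without it the log2 fold change was -0.32 and the adjusted p 0.155. In hippocampus the means were 68.9 ± 2.42 (SD, n = 4) and 69.6 ± 8.24 CPM (n = 6). Cacnb1 was lower in hippocampus, from 47.9 ± 4.05 (n = 4) to 35.9 ± 6.57 CPM (n = 6), with an adjusted p of 0.0297 by edgeR, and had a log2 fold change of -0.11 ± 0.14 in cortex. Cacnb2, with -0.41 ± 0.21 and -0.34 ± 0.19, and Cacnb3, with -0.12 ± 0.11 and -0.27 ± 0.09, passed in neither tissue. The differences between the tissues were not past the threshold for Cacnb4 (0.51 ± 0.21, adjusted p = 0.37) or Cacnb1 (-0.35 ± 0.20, adjusted p = 0.58).

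The gamma subunits and the HCN channels had no member past the threshold. Cacng4 had the same log2 fold change in both tissues, -0.43 ± 0.17 in cortex and -0.43 ± 0.18 in hippocampus, Cacng5 had -0.23 ± 0.22 and -0.52 ± 0.30, and Cacng7 had -0.21 ± 0.20 and -0.1 ± 0.15. Hcn2 had -0.14 ± 0.12 and -0.092 ± 0.14, and Hcn3 had -0.13 ± 0.29 in hippocampus.

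Nalcn, the pore of the sodium leak channel, was lower in cortex and not past the threshold in hippocampus. It measured 44.8, 34.5, 47.3, 33.4 and 31.9 CPM in control cortices and 21.3 to 35.1 (median 28.9) in GA-Camk2a cortices, with overlap (log2 fold change -0.46 ± 0.15, adjusted p = 0.043). Hippocampal means were 39.1 ± 4.86 (SD, n = 4) and 39.1 ± 4.53 CPM (n = 6). The cortical call was lost in 8 of 11 other settings.

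Of the FGF homologous factors, Fgf13 was lower in both tissues. Fgf13 also binds microtubules and is known for its part in neuronal migration. It measured 100, 89, 82.8, 91.1 and 90.6 CPM in control cortices and 61.1 to 68.5 (median 65.8) in GA-Camk2a cortices, so that even the lowest control stood well above every GA-Camk2a library (log2 fold change -0.46 ± 0.10, adjusted p = 0.00289). Values in control hippocampi were 124, 106, 133 and 107 CPM, and in GA-Camk2a hippocampi 62 to 75.9 (median 70.8). With -0.76 ± 0.09 it had the lowest adjusted p of the 30 genes there (9.79e-05). The difference between the tissues did not pass (-0.31 ± 0.13, adjusted p = 0.382). Fgf12 had log2 fold changes of -0.20 ± 0.09 and -0.11 ± 0.11, and Fgf14, in which changes cause a spinocerebellar ataxia, -0.40 ± 0.17 and -0.36 ± 0.15, none past the threshold. Without cortex GA-Camk2a 30, whose Fgf14 value of 98.8 CPM stood above its group, Fgf14 was at -0.64 in cortex with an adjusted p of 0.000879.

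Across roles, 8 genes were lower in both tissues (Scn2a, Scn8a, Scn2b, Cacna1a, Cacna1e, Cacna2d1, Cacna2d3 and Fgf13). The share of all genes lower in both tissues is not given here, so these 8 cannot be set against it. Both tissues came largely from the same mice, so a call in each is not an independent repeat. By DESeq2 without covariates Cacna1a (adjusted p = 0.0637), Cacna1e (0.151) and Cacna2d3 (0.0885) did not pass in cortex, which left 5 of the 8 in both tissues. Scn8a, Cacna2d1 and Fgf13, 3 of the 8, kept both calls whichever library was left out. A further 5 passed in cortex alone (Scn1a, Scn3a, Cacna1i, Cacnb4 and Nalcn), 3 in hippocampus alone (Scn3b, Cacna1h and Cacnb1), and 15 in neither. Apart from Scn3b, none of those 5 and 3 was shown to differ between the tissues by the test of the difference.

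**Figure D3:**
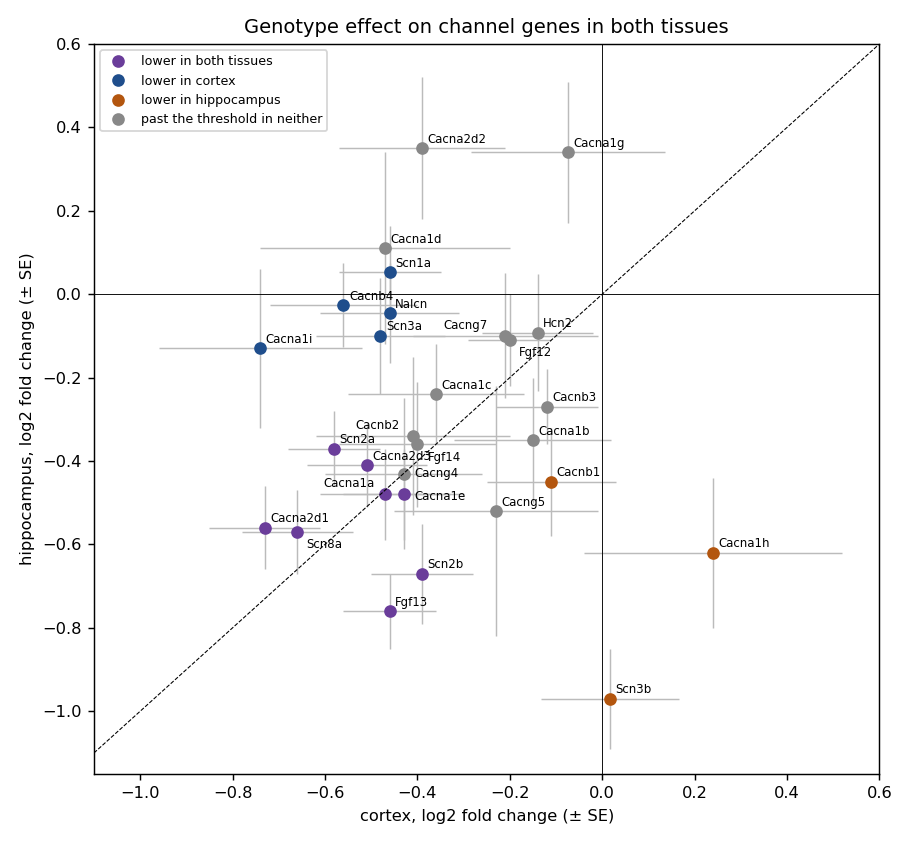
Log2 fold change of GA-Camk2a over control in cortex (horizontal) and hippocampus (vertical) for the 29 genes tested in both, with SE bars; the dashed line marks equal values. Scn3b lies farthest from the line, at 0.017 in cortex and -0.97 in hippocampus, and the 8 genes lower in both tissues (purple) lie in the lower left.

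Much of the cortical result leaned on single libraries. Control 31 had the highest value among the 5 control cortices in 21 of the 31 genes, and without it 5 of the 29 genes passed in cortex, Scn1a, Scn2a, Scn8a, Cacna2d1 and Fgf13, with a median of -0.30 and 24 values below 0. Of all genes, 3.64% were lower in cortex without control 31. Leaving out GA-Camk2a 23 gave 6 channel genes, and GA-Camk2a 35 or control 37 gave 8 each. These 5 genes stayed past the threshold whichever cortex library was left out. In hippocampus 6 genes did so (Scn8a, Scn2b, Scn3b, Cacna1e, Cacna2d1 and Fgf13), and the lowest count was 7, without control 31. Without the 3 hippocampi high in Rorb together, 8 genes passed there: Cacna1a (adjusted p = 0.119), Cacna1h (0.119), Cacna2d3 (0.151) and Cacnb1 (0.171) were lost, Cacnb3 was added (0.0498), and the median over the tested channel genes was -0.27. Of all genes, 3.74% were lower in hippocampus without these 3 libraries. Within batch 1 alone 7 channel genes passed in cortex and 2 in hippocampus, and within batch 2 alone 0 and 6, on smaller groups. Of all genes, 3% in cortex and 0.42% in hippocampus were lower in batch 1, and 0.83% and 2.54% in batch 2. Unadjusted, 8 of 28 channel genes were lower and 0 higher by edgeR in the batch 2 cortices, where no other tool was run. The other cortical calls were each lost without some library. Scn2b was lost without GA-Camk2a 16, 23 or 35 or control 20, 31, 37 or 38 (adjusted p up to 0.0907), Scn3a without GA-Camk2a 16, 23 or 41 or control 31 or 37 (up to 0.115), and Nalcn without control 11, 20, 31 or 37 or GA-Camk2a 23, 35 or 41 (up to 0.171). Cacna1a was lost without control 11, 20 or 31 or GA-Camk2a 23, 34, 35 or 41 (up to 0.208), Cacna1e without control 11, 31 or 37 or GA-Camk2a 23, 34, 35 or 41 (up to 0.235), Cacna1i without GA-Camk2a 23 or 34 or control 31 or 37 (up to 0.186), and Cacnb4 without GA-Camk2a 23 or 35 or control 31 (up to 0.155). In hippocampus, Cacnb1 was lost without control 11, 20 or 31 or GA-Camk2a 16, 35 or 41 (up to 0.0793) and Cacna1h without control 31 or 37 or any GA-Camk2a library (up to 0.14). The 13 cortical and 11 hippocampal log2 fold changes kept their sign in both batches.

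The channel genes are long, and long genes were lower at a higher share than all genes in both tissues. The median genomic span of the 29 genes tested in cortex was 159 kb, against 22.2 kb for all genes with a span, and 19 of the 29 spanned 100 kb or more. Among the 1757 tested genes of that length, 17.1% were lower in cortex, against 6.17% of all genes, and the median log2 fold change was -0.17. In hippocampus 10.7% of 1956 such genes were lower, against 5.97% of all genes, and the median was -0.005. Across genes, which are not independent replicates, the Spearman correlation of span with log2 fold change was -0.31 in cortex (11981 genes) and -0.02 in hippocampus (13279 genes). Genes of 100 kb or more took 12.4% of the counts of control cortex 31, 9.95% to 10.6% in the other control cortices and 8.66% to 9.92% in the GA-Camk2a cortices. Without control 31 the cortical correlation was -0.21 and the median of the long genes -0.11. The part of gene length in the channel results of either tissue was not tested.

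**Figure D4:**
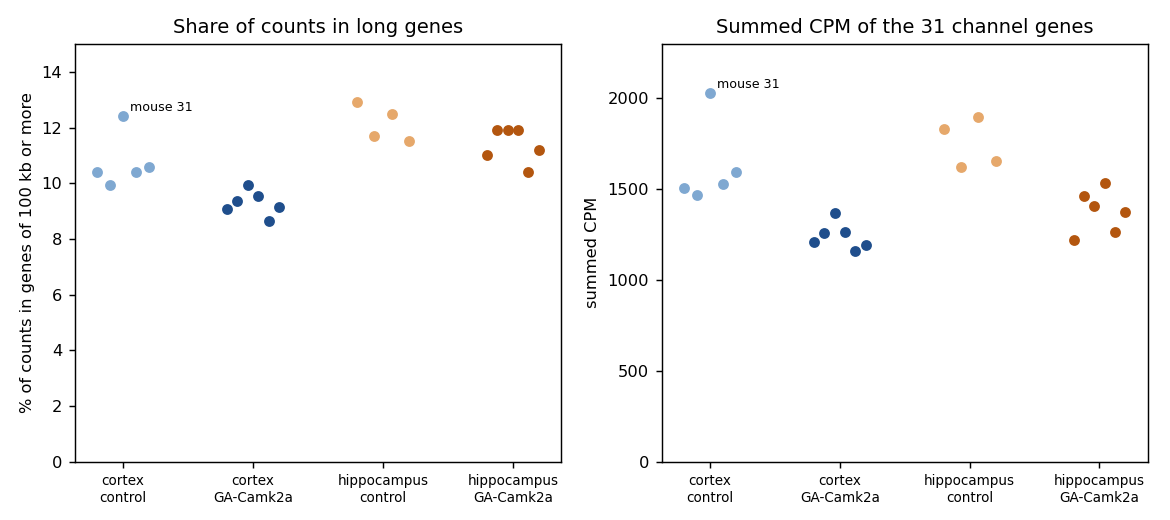
Left, percent of each library's counts in genes of 100 kb or more; right, summed CPM of the 31 channel genes in each library, by group. Control cortex 31 is highest in its group in both panels (12.4% and 2030 CPM), and the summed CPM is 1470 to 2030 in control against 1160 to 1370 in GA-Camk2a cortices and 1620 to 1900 against 1220 to 1540 in hippocampi.

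Other genes of the same families, 22 in all, had fewer members with enough counts. In cortex 4 of the 11 tested were lower by edgeR and 0 higher, where 6.17% of all genes were lower, and at an unadjusted p under 0.05 there were 7 lower and 0 higher. DESeq2 and limma-voom called 2 and 3 lower and 0 higher. Scn4b, a beta subunit abundant in striatal neurons and a neighbour of Scn2b on chromosome 9, measured 34.6 to 49.1 CPM in controls and 7.84 to 18.2 in GA-Camk2a cortices (log2 fold change -1.64 ± 0.18, adjusted p = 1.72e-06). All 9 striatal markers were lower in the same cortices (median -1.49), and their part in the Scn4b value was not tested. Unc80, which scaffolds the Nalcn channel, was at -0.55 ± 0.13 (adjusted p = 0.00811), and Fgf11, another FGF homologous factor, at -0.77 ± 0.22 (0.0224).

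In hippocampus 2 of 13 were lower by edgeR and 0 higher, against 5.97% of all genes lower, and unadjusted 4 were lower and 0 higher. DESeq2 and limma-voom called 2 and 4 lower and 0 higher. Cacng8, an AMPA receptor auxiliary subunit enriched in hippocampus and a neighbour of Cacng7 on chromosome 7, measured 82.8 to 98.1 CPM in controls and 24.8 to 46.6 in GA-Camk2a hippocampi (log2 fold change -1.30 ± 0.13, adjusted p = 2.02e-05). In cortex it was at -0.13 ± 0.11, and the difference between the tissues passed (-1.19 ± 0.16, adjusted p = 0.000798), whereas the values of Cacng7 were -0.21 ± 0.20 and -0.1 ± 0.15.

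Control mice show where the channel genes lie between the tissues. Of 30 tested genes, 5 were higher in hippocampus and 4 in cortex, against 8.69% and 7.60% of all 14435 genes. Cacna1h (0.92 ± 0.28), Cacnb2 (0.91 ± 0.16), Scn3b (0.87 ± 0.12), Cacna1e (0.87 ± 0.15) and Cacna1c (0.75 ± 0.17) were higher in hippocampus. Cacna2d2 (-0.90 ± 0.18), Fgf12 (-0.67 ± 0.11), Fgf14 (-0.62 ± 0.13) and Cacng4 (-0.54 ± 0.17) were lower there. Scn2a, with 188 ± 28.5 (SD, n = 5) and 200 ± 25.6 CPM (n = 4), and Nalcn, with 38.4 ± 7.12 and 39.1 ± 4.86 CPM, differed by less than their spread. The comparison shares the hippocampus controls with the genotype comparison, in which Scn3b, Cacna1e and Cacna1h were lower. The 4 group means of Scn3b, side by side, were 56.5 and 56.4 CPM in control and GA-Camk2a cortex and 110 and 58.3 CPM in control and GA-Camk2a hippocampus. In simulated counts of this comparison, false calls made up a larger share of the calls than the threshold allows, so these calls are less certain than those between genotypes. Without hippocampus control 11, one of those high in Rorb, 8 genes passed. Without cortex control 31, 14 genes passed instead of 9. The call of Cacna1h was lost without cortex control 20, 37 or 38 or hippocampus control 37 (adjusted p up to 0.11), and that of Cacng4 without hippocampus control 11 or 20 or cortex control 20, 31, 37 or 38 (up to 0.154).

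**Figure D5:**
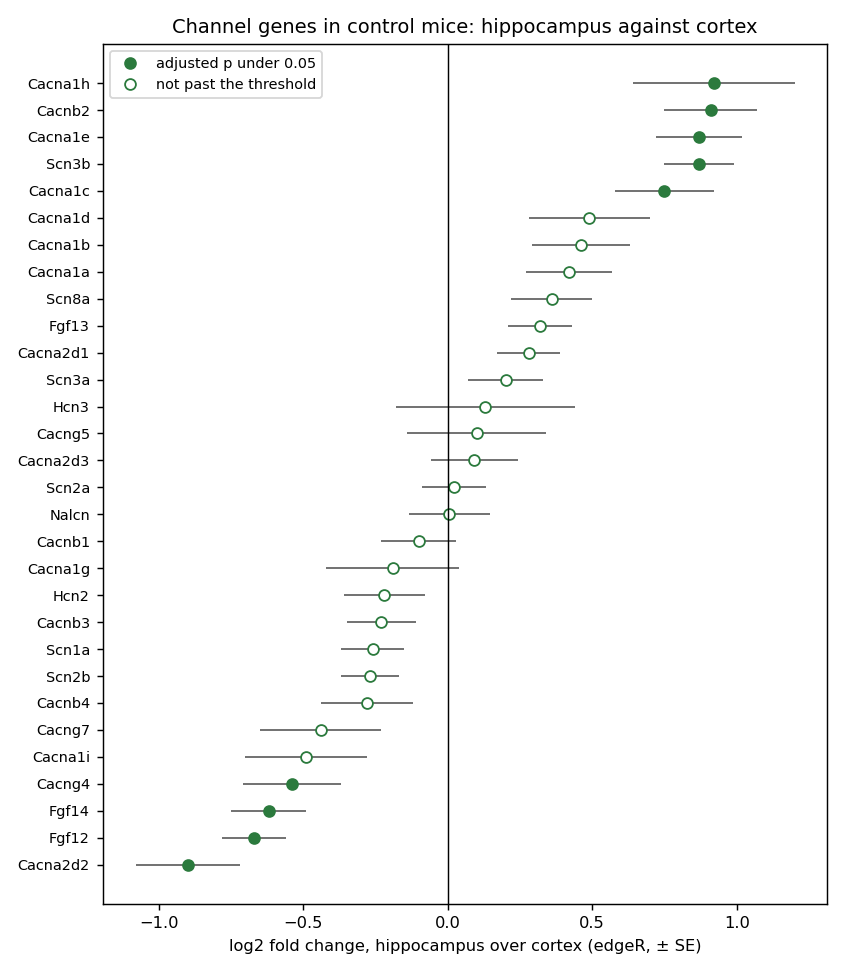
Log2 fold change of hippocampus over cortex in control mice (4 and 5 libraries) for the 30 tested genes, with SE bars; filled points passed an adjusted p of 0.05. The values run from -0.90 for Cacna2d2 to 0.92 for Cacna1h.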

How the data were processed

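Gene expression was measured by prime-seq. The authors deposited raw counts, aligned to mouse genome GRCm39; their processing notes name FastQC 0.11.8, cutadapt 1.12, STAR and DESeq2 1.44. The study's reporting summary names zUMIs, a pipeline that counts molecular identifiers, but whether the deposited table holds identifiers or reads, and the use of strand and introns, are not given in the sources used here, so the counts of Cacna1a, Cacna1d, Cacna1h, Cacna2d2, Cacnb1, Cacnb2, Cacnb4, Hcn3 and Fgf14, whose exons overlap a gene on the opposite strand, are uncertain. Symbols (43308 rows, 96.1% of counts) and spans came from a GRCm38 annotation.

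Groups, mouse numbers and batches came from the labels. The study's legend gives the numbers of control cortices and hippocampi the other way round, and the labels were followed. The GFP row was left out. Counts were tested with edgeR 4.0.16 in R 4.3.3 (TMM, filterByExpr with a minimum count of 10, quasi-likelihood test, batch as covariate, Benjamini-Hochberg over all genes, threshold 0.05) within each tissue, over all 21 libraries for the difference between tissues, and in the controls for hippocampus against cortex. Single genes' adjusted p-values are from edgeR. The study names DESeq2 and the sources used here give no design formula for it. Batch was used as a term here, and DESeq2 1.42.0 with and without batch was run as an alternative. The same mouse gave both tissues, so mouse numbers pair libraries; deviations correlated at 0.14 to 0.28 in the 5 mice with both libraries in 1 batch and at -0.23 to -0.07 in the other 5. Of 46 replicate pairs 0 were identical. Scripts were tested on simulated data, in which the share of false calls stayed near the threshold within each tissue and exceeded it for the difference between tissues and, more so, for hippocampus against cortex in controls. The members and lists were chosen with earlier results of these data known. For 12 of the 16 genes called in either tissue, control libraries are given one by one and the 6 GA-Camk2a libraries by lowest, median and highest, mostly in the tissues where the gene was called; these 12 are those with the lowest adjusted p with each role represented, and every other gene of the 31 is accounted for; some results on other genes of these families are not reported here. Alternatives were other normalizations and tools, no filter, thinned counts, single batches, leaving out each library and, chosen after seeing the data, leaving out together the hippocampi with over 1000 CPM of Rorb.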

Additional observations from a re-analysis of the deposited data

Results flagged for a closer look

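Over 118 gene and group combinations of 4 to 6 libraries, 7 held a library farther from its nearest neighbour than Dixon's test allows at 95%, where chance gives about 1 in 20. In control cortices, mouse 31 was highest for Cacna1a (55.3 CPM, next 40.0), Cacnb4 (133 CPM, next 77.3), Cacng7 (33.7 CPM, next 18.2) and Hcn2 (78.8 CPM, next 51.8). Fgf14 was at 98.8 CPM in GA-Camk2a cortex 30 (next 48.1) and at 62.0 CPM in control hippocampus 11 (next 43.9). Scn2b was at 126 CPM in GA-Camk2a hippocampus 34 (next 87.4).

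The genotype effect on Scn3b differed between the tissues by -1.01 on the log2 scale (hippocampus minus cortex), by the edgeR test of the difference itself, with an adjusted p of 0.0271. Without the 3 hippocampi high in Rorb it was 0.081. In simulated counts, false calls in this test exceeded the share that the threshold allows.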

How the results depend on the processing

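No channel gene past the threshold changed direction under any alternative that was run. In cortex the 13 calls became 8 with DESeq2 and batch, 7 with DESeq2 without covariates, 7 with counts thinned to the smallest library, 7 in batch 1 alone and 0 in batch 2 alone, and 5 to 14 with a library left out. By DESeq2 with batch the cortical calls of Scn3a (adjusted p = 0.0646), Cacna1a (0.0715), Cacna1e (0.0792), Cacna1i (0.0716) and Nalcn (0.0831) were lost. In hippocampus the 11 calls became 10 with each DESeq2 fit and with limma-voom, Cacna1h being lost, 8 after thinning, Cacna1h (adjusted p = 0.266), Cacna1a (0.0625) and Cacna2d3 (0.0644) being lost, 8 without the 3 hippocampi high in Rorb, 2 in batch 1 alone and 6 in batch 2 alone, and 7 to 10 with a library left out. For the difference between the tissues, the 1 call became 0 by edgeR without a batch term (Scn3b adjusted p = 0.0575; 3 lower and 4 higher unadjusted), 0 by edgeR without the hippocampi high in Rorb (Scn3b -0.97, adjusted p = 0.081; 3 lower and 4 higher unadjusted; 1 call by DESeq2) and 0 to 1 with a library left out; the DESeq2 adjusted p-values of Scn3b were 0.00201 and 0.00793. For hippocampus against cortex in controls, the 9 calls became 15 with limma-voom and 7 to 14 with a library left out. With the mouse as a replicate block, 1 gene passed for the difference between the tissues (Scn3b, adjusted p = 0.0179) and 10 for the tissues in controls, Scn8a being added (adjusted p = 0.0446). Over all genes, the 1635 calls in cortex became 1069 after thinning, 876 and 230 in batches 1 and 2, and 1038 without control 31, and the 1628 in hippocampus became 1070 after thinning and 115 and 681 in the batches, and 1005 without the hippocampi high in Rorb, where the difference between the tissues had 20 calls instead of 59. Scn3b and Fgf13 in hippocampus passed under every alternative. Upper quartile scaling moved the share of higher calls in cortex from 50.7% to 57.8%. Counts below about 10 per library limited Hcn3, Hcn4 and Cacna1h. Where no cause is given, the cause was not tested.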
